A study of Mus musculus with 8 samples.

Results

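The sarcomere is the contractile unit of striated muscle. Thick filaments of myosin slide along thin filaments of actin, which carry tropomyosin and the troponin complex that makes contraction depend on calcium. Thin filaments are anchored at the Z-disc and thick filaments are held together at the M-band, while the giant protein titin spans the distance between both. Many of these proteins exist as heart, slow skeletal and fast skeletal isoforms encoded by separate genes, and adult ventricular muscle largely uses the heart forms together with a few genes shared with slow muscle.

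The 34 genes described here were chosen by name from the 55383 genes of the deposited table, and each was found once. Of these, 22 encode the heart sarcomere and its scaffold (4 for the thick filament and titin, 5 for the thin filament, 8 for the Z-disc, 3 for the M-band, and desmin with its chaperone alpha-B crystallin), and 12 are skeletal muscle isoforms (3 slow and 9 fast). They were measured in the hearts of mice on a C57BL/6N background at an age of about 5 weeks. The control hearts (n = 2) are labelled Ssbp1+/+ and, per the study's methods, come from animals with loxP-flanked Ssbp1 alleles and no cre. The knockout hearts (n = 2) are labelled Ssbp1-/- and come from animals with the same alleles and a Ckmm-cre transgene, whose muscle creatine kinase promoter is active in heart and skeletal muscle, so that other cell types of the heart keep the gene. Ssbp1 encodes the mitochondrial single-stranded DNA-binding protein. The comparison asks whether RNA of the contractile apparatus differed in hearts that lost this protein.

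Values are normalized counts, that is, reads per gene scaled by library, and the 4 libraries held 19716305 to 25682093 reads, of which 6568812 to 11259234 came from nuclear genes. Ssbp1 itself gave normalized counts of 177 and 216 in control hearts against 170 and 163 in knockout hearts (log2 fold change -0.23, limma adjusted p = 0.890), and this count covers the whole gene, including exons outside the deleted part, so it does not check the labels. Markers of cardiomyocytes were high in all 4 libraries, with a summed count of 506848 to 520345 in control hearts against 502313 to 522326 in knockout hearts. The labels give total heart. Of 4 atrial markers, Myl7 and Sln stayed at or below 1.53 normalized counts in every library, and Myl4 had 9.89 to 16.2. Nppa had 561 and 1021 in control hearts against 449 and 1102 in knockout hearts. The part of atrial tissue in the samples was not tested. Of 12 skeletal muscle markers, 7 stayed under 10 in every library, and Pvalb, Myf6 and Myog had no read in any. Erythroid genes summed to 41866 in knockout 2 against 14398 to 18944 in the other 3 libraries. Mitochondrial genes took 62.7% and 66.7% of all normalized counts in control hearts against 58% and 56.2% in the knockouts, so a scaling per 1000000 of all genes would raise every nuclear gene by 0.30 on the log2 scale in the knockouts relative to the scaling used here. Under that scaling 23 of the 27 tested members would be positive and 4 negative, in place of 11 and 16. The 4 are Myl1 (-0.999), Tnnt1 (-0.59), Tpm2 and Tcap, while Synpo2l (0.89) and Flnc (0.71) stay positive and Tpm1 turns positive, so all differences given below are relative to the other nuclear genes. In whole tissue, fewer cells of a type and less RNA per cell cannot be told apart.

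The upstream sequences of the 4 members with the largest departures, and of the heart and fast skeletal forms of troponin C, are shown because these genes carry the contrasts that follow. RefSeq promoter entries on GRCm38.p6 matched 29 of the 34 members (not Tcap, Cryab, Myom2, Tnni2 and Tnnt3), and the 250 bases before the annotated start are printed 5′ to 3′ on the strand of the gene. Capitals mark a match to the binding motif of MEF2 in Synpo2l and to the MCAT element CATTCC on either strand in Flnc, Myl1 and Tnnc1. They mark TATAAA in Tnnt1 and the E-box CANNTG in Tnnc2. Only the motif named for a gene is in capitals, and matches to the other motifs stay in lower case. CANNTG also occurs in Synpo2l, Myl1 and Tnnt1, and in Tnnc1 as often as in Tnnc2. Synpo2l lies at chr14:20668355-20668604 on the minus strand, Flnc at chr6:29433006-29433255 on the plus strand, Myl1 at chr1:66945057-66945306 on the minus strand, Tnnt1 at chr7:4515976-4516225 on the minus strand, Tnnc1 at chr14:31208062-31208311 on the plus strand and Tnnc2 at chr2:164779735-164779984 on the minus strand. Where a gene had several RefSeq starts, the start nearest to the outer end of the GENCODE gene was used.
Synpo2l: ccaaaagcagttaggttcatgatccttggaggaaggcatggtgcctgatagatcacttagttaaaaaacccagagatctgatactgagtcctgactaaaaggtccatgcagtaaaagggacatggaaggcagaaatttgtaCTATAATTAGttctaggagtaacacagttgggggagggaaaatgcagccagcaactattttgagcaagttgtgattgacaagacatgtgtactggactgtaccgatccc
Flnc: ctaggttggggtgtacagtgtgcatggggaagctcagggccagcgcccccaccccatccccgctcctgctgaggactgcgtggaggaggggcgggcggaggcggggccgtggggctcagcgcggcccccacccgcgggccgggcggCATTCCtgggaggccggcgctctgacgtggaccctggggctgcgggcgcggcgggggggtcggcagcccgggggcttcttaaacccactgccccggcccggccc
Myl1: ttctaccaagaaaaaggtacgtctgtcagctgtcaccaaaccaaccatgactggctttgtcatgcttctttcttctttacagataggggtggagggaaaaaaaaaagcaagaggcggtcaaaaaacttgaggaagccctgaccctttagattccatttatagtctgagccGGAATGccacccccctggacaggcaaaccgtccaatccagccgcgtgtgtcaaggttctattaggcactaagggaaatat
Tnnt1: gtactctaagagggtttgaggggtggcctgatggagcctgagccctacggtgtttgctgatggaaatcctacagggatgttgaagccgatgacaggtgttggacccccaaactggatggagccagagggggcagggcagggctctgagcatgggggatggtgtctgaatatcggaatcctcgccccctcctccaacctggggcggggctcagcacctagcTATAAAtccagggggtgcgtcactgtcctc
Tnnc1: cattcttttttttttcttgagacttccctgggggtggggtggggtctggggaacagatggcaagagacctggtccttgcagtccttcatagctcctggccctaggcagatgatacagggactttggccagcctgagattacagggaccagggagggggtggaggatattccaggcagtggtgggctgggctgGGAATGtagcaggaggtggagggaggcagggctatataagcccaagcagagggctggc
Tnnc2: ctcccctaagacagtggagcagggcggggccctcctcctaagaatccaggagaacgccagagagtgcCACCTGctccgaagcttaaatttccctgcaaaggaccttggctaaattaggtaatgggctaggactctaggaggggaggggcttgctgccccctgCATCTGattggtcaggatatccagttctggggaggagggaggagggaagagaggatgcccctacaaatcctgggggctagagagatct

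Over all matched members, a MEF2 motif occurred in 7 of 29 genes (Ttn, Mybpc3, Myoz2, Myom3, Synpo2l, Myh1 and Myh4), against 2.92% of the 32851 promoter windows of the same length. The CArG motif bound by serum response factor was found in 6 of 29 (Actc1, Myl3, Ldb3, Myom1, Nebl and Myh4), against 1.47% of all windows. MCAT was found in 9 of 29 against 12.6%, CANNTG in 24 of 29 against 66.2%, and TATAAA, searched on the gene's strand only, in 3 of 29 against 7.59%. The members' shares count a gene once if any of its starts held the motif, while the shares over all windows count starts. Of the 40 starts of members, 20% held MEF2, 17.5% CArG, 22.5% MCAT, 77.5% CANNTG and 7.5% TATAAA. The motifs can overlap one another, and a match is a description of these letters.

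Levels were compared between genes per kb of merged exon. In the controls, Actc1, cardiac actin, was the highest at 51590 ± 7423 normalized counts per kb (SD, n = 2), followed by Myl2, the ventricular regulatory light chain, at 39734 ± 76.5. Cardiac troponin T (Tnnt2) at 28158 ± 267, cardiac troponin I (Tnni3) at 26842 ± 519 and the ventricular essential light chain Myl3 at 25429 ± 1125 came next. The ranges over the 4 libraries of Tnnt2 and Tnni3 overlapped, as did those of Tnni3 and Myl3, so the order among these neighbours is not set by the data.

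Tropomyosin 1 (Tpm1) at 14954 ± 791 per kb and cardiac troponin C (Tnnc1) at 14376 ± 167 had overlapping ranges. The Z-disc LIM protein Csrp3 (7463 ± 64.1), myosin-binding protein C (Mybpc3, 7386 ± 1040) and titin (Ttn, 7353 ± 69.0) also overlapped. The remaining heart members ran from 6512 per kb for the calcineurin-binding Z-disc protein Myoz2 down to 217 ± 24.1 for Synpo2l, with the M-band gene Myom3 far below at 5.21 ± 1.56. Among the skeletal isoforms, Myl1 (234 ± 85.9 per kb), Tpm3 (196 ± 17.4) and Tnnt1 (187 ± 87.9) lay in the range of Synpo2l, and the other fast troponins and myosins lay at or below 14.7 per kb.

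Across the 22 heart members, RNA was nearly level between control and knockout hearts. Together they made up 14.4% and 14.2% of the nuclear normalized counts in control hearts against 14.4% and 13.7% in the knockouts, of which titin alone gave 9.45% and 9.50% against 9.64% and 8.95%. The summed share overlapped between the groups, and its log2 difference was -0.03 (two-sided exact permutation p = 1, n = 2 against 2, a design whose smallest possible p is 0.333). Of the 27 members that passed the filter on low values, none was called at an adjusted p under 0.05 with limma, where 0.117% of the 14522 genes tested were called. An unadjusted p under 0.05 was found for 4 members, 2 higher and 2 lower in the knockouts, while 6.11% of all tested genes had one. The groups did not overlap for 8 of the 27, 3 higher and 5 lower in the knockouts, where 35.6% of all tested genes did not overlap.

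The median log2 fold change was -0.01 over the heart members and -0.03 over all 27, beside 0.0024 over all genes tested. The change was under 0.2 in size for 19 of the 22 heart members, against 58.2% of all tested genes and 81.1% of the 1300 with a mean of at least 1000. For 18 of the 22, the 95% interval of the difference excluded a change of 1.5-fold or more in either direction, against 40.8% of all genes and 91.7% of those at 1000 or more. The limma p-values rest on the spread between these 4 mice, with that of each gene drawn toward a trend over all tested genes.

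edgeR, run on the recovered reads, also called 0 members, with 0.131% of all genes called, and gave 4 members an unadjusted p under 0.05, with 6.11% of all genes there. DESeq2 on those reads called 3 members, Synpo2l, Flnc and Myl1, with 0.494% of the genes to which it gave an adjusted p called. It gave 6 members an unadjusted p under 0.05, with 3.62% of all genes there.

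**Figure D1:**
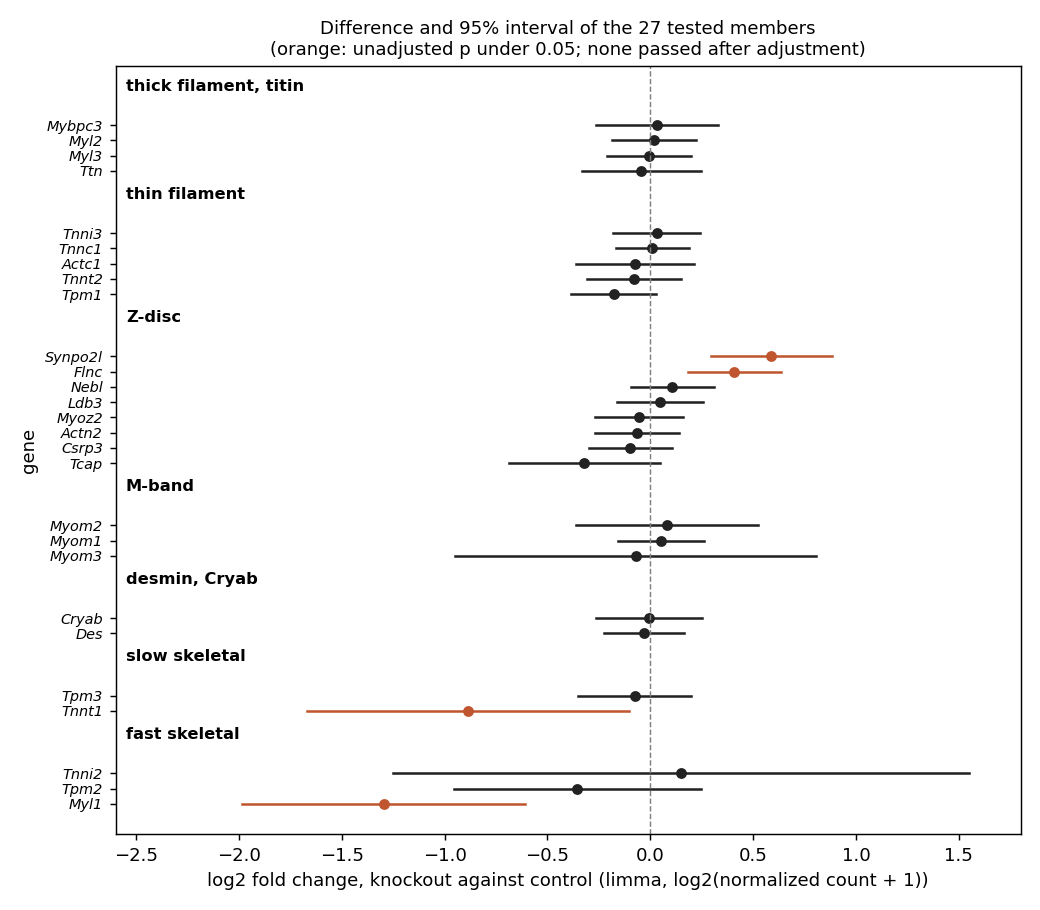
Log2 fold change of the 27 tested members, knockout against control, by role in the sarcomere; points are limma estimates on log2(normalized count + 1) and lines their 95% intervals, orange for an unadjusted p under 0.05. Intervals of 23 members cross 0, and those of Synpo2l, Flnc, Myl1 and Tnnt1 do not.

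The thick filament and titin genes gave log2 fold changes between -0.04 and 0.03. Titin, the molecular spring of the sarcomere, gave normalized counts of 829651 and 840741 in control hearts against 852533 and 770869 in knockout hearts (95% interval of the log2 fold change -0.33 to 0.25, limma adjusted p = 0.971). The knockouts lay on both sides of the controls. Myl2 had 49321 and 49456 against 52030 and 47942, again with the knockouts on both sides. Mybpc3 and Myl3 overlapped between groups as well, and all 4 intervals stayed within 1.5-fold.

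In the thin filament, Tpm1, which encodes the main cardiac tropomyosin and lies over the actin filament, had the smallest p of the 5 genes. Its normalized counts were 74154 and 68806 in control hearts against 62269 and 63979 in knockout hearts, a log2 fold change of -0.18 ± 0.09 (SE, limma adjusted p = 0.815). Both knockouts were below both controls, but the difference did not pass the test. The 3 subunits of the cardiac troponin complex, Tnnt2, Tnni3 and Tnnc1, gave log2 fold changes of -0.08 to 0.03. Tnnc1, the calcium-binding subunit, gave 10280 and 10450 against 10333 and 10550. Actc1 had 83724 and 68262 against 69688 and 74118, and the controls spanned both knockouts.

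The Z-disc genes spread further than the other heart groups, with log2 fold changes from -0.32 to 0.59. Synpo2l encodes an actin-associated protein of the Z-disc and lies at chr14:20658946-20668354 (GRCm38, minus strand). Its normalized counts were 1082 and 924 in control hearts against 1409 and 1606 in knockout hearts. Both knockouts exceeded both controls, with a log2 fold change of 0.59 ± 0.12 (SE, limma unadjusted p = 0.003, adjusted p = 0.50). DESeq2 gave 0.58 with an adjusted p of 0.0164, and edgeR gave 0.59 with an adjusted p of 0.434.

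Flnc, at chr6:29433256-29461883 on the plus strand, encodes filamin C, a muscle crosslinker of actin at the Z-disc and the membrane. It had 6848 and 5971 normalized counts in control hearts against 8403 and 8576 in knockout hearts. The knockouts differed little from each other and lay above both controls, with a log2 fold change of 0.41 ± 0.09 (SE, limma unadjusted p = 0.004, adjusted p = 0.553). The adjusted p was 0.0330 with DESeq2 and 0.619 with edgeR.

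Tcap, the titin cap protein telethonin, pointed the other way, with 2909 and 3130 in control hearts against 2818 and 2071 in knockout hearts (log2 fold change -0.32 ± 0.15 SE, limma adjusted p = 0.815). Knockout 2, the library with the most erythroid RNA, was the lowest, and the part of that RNA in this value was not tested. Nebl, the nebulin-like thin filament anchor nebulette, had both knockouts above the controls at 0.11, and Csrp3 had both below at -0.10, neither past the test. Actn2, the alpha-actinin that crosslinks actin at the Z-disc, Ldb3 and Myoz2 overlapped between groups, between -0.06 and 0.05.

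At the M-band, the myomesins that tie thick filaments together gave -0.07 to 0.08. Myom2 had 8490 and 12731 normalized counts in control hearts against 11150 and 10826 in knockout hearts, so that the controls enclosed both knockouts and differed more from each other than the groups did. Myom1 had the smallest p of the 3, at 17957 and 19611 against 20061 and 18876 (limma adjusted p = 0.956). Desmin (Des), the intermediate filament that links Z-discs, had 11453 and 11306 against 11560 and 10729. Cryab, the small heat shock protein alpha-B crystallin that protects desmin, had 5696 and 6213 against 6421 and 5462, and both overlapped between groups.

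The 12 skeletal members were a small share of the nuclear RNA, and their sum was lower in both knockout hearts than in both controls. The 12 genes summed to 180 and 158 per 1000000 nuclear normalized counts in control hearts against 122 and 125 in knockout hearts. The log2 difference was -0.45 (two-sided exact permutation p = 0.333, the smallest the design allows). Per 1000000 of all genes, mitochondrial included, it was -0.16 (exact permutation p = 0.667). Mice 585H and 586H, which entered no test, gave 119 and 113 per 1000000 nuclear normalized counts. Both lay below both knockouts as well as below both controls. Their titles and genotype labels contradict each other, but each names a wild-type and a knockout mouse among them. The filter kept 5 of the 12, and the 7 fast isoforms other than Myl1 and Tpm2 together gave 1.83 to 4.12 per 1000000. The sum thus rests on Myl1, Tnnt1, Tpm2 and Tpm3, with control means of 346, 202, 261 and 651 normalized counts. Gene counts cover all transcripts and all cells of the heart, and which cells gave these reads was not tested. The 12 skeletal muscle markers summed to 445 and 849 normalized counts in control hearts against 557 and 621 in knockout hearts, which overlap. The 5 fibroblast markers summed to 14790 and 13783 against 10827 and 13193, both knockouts below both controls. The part of either list in the sum was not tested. Skeletal actin, Acta1, is not among the 12 genes. Its normalized counts were 2801 and 4253 in control hearts against 2670 and 1662 in knockout hearts. The log2 fold change was -0.71 (limma adjusted p = 0.798). On the skeletal marker list, Mybpc2 pointed the other way at 0.45. The other tested genes of that list, Casq1 (-0.40), Cacna1s (-0.24) and Neb (-0.03), were lower, and none of them passed the test.

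Myl1 encodes the essential light chain of fast skeletal myosin, at chr1:66924295-66945404 on the minus strand. It had 256 and 435 normalized counts in control hearts against 157 and 116 in knockout hearts, from 262 and 323 reads against 191 and 152. Every knockout was below every control, and the controls lay further apart than the knockouts. The log2 fold change was -1.30 ± 0.28 (SE, limma unadjusted p = 0.003, adjusted p = 0.530), with an adjusted p of 0.00379 with DESeq2 and 0.480 with edgeR.

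Tnnt1, slow skeletal troponin T, at chr7:4504570-4516382 on the minus strand, had 269 and 135 in control hearts against 98.9 and 106 in the knockouts. The knockouts agreed closely and lay below both controls, but control 1 alone stood far above the rest. The log2 fold change was -0.89 ± 0.32 (SE, limma unadjusted p = 0.033, adjusted p = 0.796), and it was -0.39 without control 1. Smooth muscle markers were also highest in control 1, where the 4 genes of that list (Myh11, Acta2, Tagln and Cnn1) summed to 4370 against 2909 in control 2 and 2583 and 3408 in the knockouts. Cnn1, the smooth muscle calponin, had 64.5 in control 1 and 19.1 to 26.9 elsewhere. Of the other marker lists, only those of macrophages and fibroblasts were highest in control 1 as well. The macrophage list summed to 1457 there against 794 in control 2 and 1009 and 1020 in the knockouts. The part of RNA of these cell types in the Tnnt1 value was not tested.

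**Figure D2:**
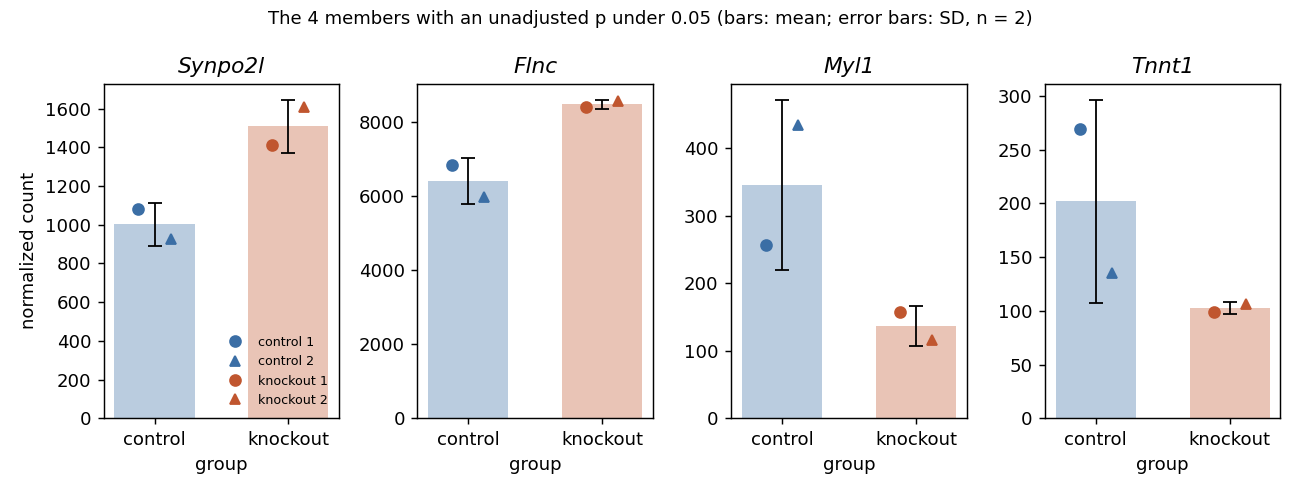
Normalized counts of Synpo2l, Flnc, Myl1 and Tnnt1 by group, each panel with its own axis from 0; bars are means, error bars SD (n = 2), and symbols the single hearts. The groups do not overlap in any panel, and the 2 controls differ most from each other for Myl1 and Tnnt1.

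The tropomyosins used by skeletal muscle overlapped between groups. Tpm2 had 323 and 199 in control hearts against 181 and 217 in knockout hearts (log2 fold change -0.35, limma adjusted p = 0.886), again highest in control 1. Tpm3 had 692 and 610 against 611 and 621. Tnni2, fast troponin I, had 17.6 and 8.08 against 15.7 and 11.5, which is 6 to 19 reads per library.

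The other 7 skeletal members did not reach the filter and had at most 10 reads in any library. Mylpf, the fast regulatory light chain, had 10 and 4 reads in control hearts against 3 in each knockout. Tnnt3 had 2 to 6 reads and Tnni1 2 or 3. Tnnc2, the fast troponin C whose upstream sequence stands beside that of Tnnc1 above, had 1 and 0 reads against 0 and 1, which is 0.698 ± 0.987 per kb in control hearts where Tnnc1 had 14376 ± 167. Myh2 had 5 and 0 against 7 and 0, and Myh4 had 0 and 0 against 1 and 1. Myh1 had 0 reads in all 4 libraries, which allows up to 2.30 to 4.04 normalized counts per library (3 reads, counting error only). Myh1, Myh2 and Myh4 are close paralogs, and how their reads were divided by the quantifier is uncertain, as it is for Actc1 and Acta1 and among the tropomyosins.

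Isoform use within a protein was compared as the level per kb of the first gene for each 1000 of the second, in 11 pairs. Each level covers all transcripts of the gene and all cells of the tissue. Myl1 reached 6.62 and 12.0 per 1000 of its ventricular counterpart Myl3 in control hearts against 4.07 and 3.23 in the knockouts. The slow troponin T gene Tnnt1 reached 8.80 and 4.47 per 1000 of Tnnt2 against 3.22 and 3.96. Tpm3 reached 13.4 and 12.8 per 1000 of Tpm1 against 14.1 and 14.0. The first 2 of these ratios were lower in both knockouts and that of Tpm3 was higher.

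The remaining ratios with over 3 reads in every library overlapped between the groups. Tnni2 reached 0.341 to 0.763 per 1000 of Tnni3 over the 4 hearts, Tpm2 5.82 to 8.73 per 1000 of Tpm1, and Myom3 1.19 to 1.99 per 1000 of Myom1. Myom2 was the exception in size, at 528 to 726 per 1000 of Myom1. Of the 11 pairs, 10 had a ratio in every library. Their smallest exact permutation p was 0.333 (adjusted p = 0.556), which is the smallest that 2 against 2 hearts allow, so no ratio could have passed. Tnnc2 to Tnnc1 was not tested because 2 libraries held no Tnnc2 read.

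Other genes of the pathway were counted in the same way. Of 86 genes in 3 lists (other sarcomere proteins, chaperones and turnover factors of the sarcomere, and regulators of muscle genes), 76 were tested and none was called by limma, edgeR or DESeq2, with 7, 6 and 5 at an unadjusted p under 0.05, where 6.11%, 6.11% and 3.62% of all genes stood. The median log2 fold change over the 76 was -0.03. Among 38 other sarcomere genes, 4 of the 5 with an unadjusted p under 0.05 were lower, where 439 of the 887 such genes over the whole table were lower. The smallest p belonged to Lmod2, a leiomodin that lengthens thin filaments, with 2580 and 2878 in control hearts against 2151 and 1992 in knockout hearts (log2 fold change -0.40, limma adjusted p = 0.618). Xirp2, an actin-binding protein of cell junctions and Z-discs, pointed upward at 0.28 (13420 and 14606 against 16889 and 17189), and Cmya5, a large sarcomere-associated protein, downward at -0.26 (16304 and 18274 against 14814 and 13948).

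Among the 19 chaperone and turnover genes, Hsp90aa1, an inducible heat shock protein, had 1158 and 1254 against 1392 and 1652 (log2 fold change 0.33, limma adjusted p = 0.788). Klhl40, which stabilises thin filament proteins, had 147 and 133 against 106 and 101, and Trim55, a ubiquitin ligase of the sarcomere, 690 and 657 against 601 and 475. In these 3 genes, picked for the smallest p of the list, the groups did not overlap. Of the 19, 4 lay higher and 4 lower in the knockouts without overlap, where 35.6% of all tested genes did not overlap. Of the 19 regulators none had an unadjusted p under 0.05. The 3 with the smallest p were Rbm20, the splicing factor of titin (0.17), and the transcription factors Prox1 (-0.14) and Tead1 (-0.11), a factor that binds MCAT elements.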

How the data were processed

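RNA labelled as total heart was sequenced in TruSeq libraries. Per the study's methods and notes, alignment used STAR 2.7.3a on GRCm38.p6 with nuclear copies of mitochondrial sequence masked. Salmon 1.1.0 gave counts per transcript, and the authors deposited these per gene after scaling with DESeq2 1.26.0, a signal rather than raw counts. All values were whole multiples of 1 read (tolerance 0.001), so reads could be recovered. A second deposited table, of the authors' own fold changes and p-values, was not used.

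The test kept genes reaching 10 normalized counts in 2 or more of 4 libraries. It used limma 3.58.1 (R 4.3.3) on log2(normalized count + 1) with a trend, two-sided, adjusted by Benjamini-Hochberg at 0.05. Alternatives were edgeR 4.0.16 and DESeq2 1.42.0 on recovered reads, other filters, pseudocounts and scalings, a replicate block, and each library left out. The limma fit was tested on simulated data. Positions and exon lengths came from GENCODE vM21 by gene ID.

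Mice 585H and 586H, whose labels conflict, entered no test. The members and lists were chosen with earlier results of these data known. Every member is accounted for. Values per library are given for members with an unadjusted p under 0.05, with the smallest p of their role or with a ratio that does not overlap, and for the 3 smallest p of each other list. Values given beyond that rule were chosen after they were seen.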

Additional observations from a re-analysis of the deposited data

Results flagged for a closer look

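For mice 585H and 586H the sample title and the genotype label contradict each other, so neither was placed in a group or entered a test, and their values are set beside the range of the 4 grouped hearts only as a description. Both mice lay above all 4 grouped hearts, controls included, in 8 of the 27 tested members, and in 8.69% of all tested genes. Both lay below them in 1 member (Tpm3, 579 and 483) and in 8.79% of all tested genes. As shares of the nuclear counts, 6 members lay above (without Myl2 and Ldb3) and 3 below (Tpm3, Tnnt1 and Actc1), beside 5.18% and 12.8% of all tested genes, so the count depends on the scaling.

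As deposited, Ttn had normalized counts of 877000 (585H) and 953300 (586H), where the highest grouped heart had 852533. Tcap had 4228 and 4581 above a highest grouped value of 3130, and Myom2 had 14390 and 15160 above 12731. Myl2 had 52330 and 58670 above 52030, Tnnt2 37300 and 43320 above 35992, and Tnni3 27290 and 30800 above 26359. Csrp3 had 7356 and 8305 above 7020, and Ldb3 had 9217 and 9117 above 8973.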

How the results depend on the processing

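With 2 hearts a group, only large or very regular differences could pass, and the 7 members with at most 10 reads in every library were not tested. Under every limma alternative and with edgeR, 0 of the members were called. DESeq2 called 3 (Synpo2l 0.58, Flnc 0.40 and Myl1 -1.34). The replicate numbers were not taken as pairs. The correlation of deviations was -0.0776 over 9877 genes, but 2 hearts a group leave 1 deviation per gene, so it cannot decide on pairing. The replicate block called 0 members (smallest limma adjusted p = 0.267), left the summed differences at -0.0262 for heart and -0.446 for skeletal isoforms, and called 23 genes higher and 7 lower over all genes, against 11 and 6 without it. Leaving out 1 library gave 6 to 33 calls over all genes and 0 members, in fits where the lone heart is assumed to vary like the other group, so these counts say little about stability.

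The summed heart isoforms changed sign per 1000000 of all genes (0.257) and as a mean of log2 over genes (0.0158), and ranged from -0.0648 to 0.0123 with 1 library left out. The summed skeletal isoforms stayed negative (-0.539 to -0.353), but came to -0.163 per 1000000 of all genes and to -0.258 as a mean of log2 over genes. With 1 library left out, the sign also changed for Des (-0.0849 to 0.0228), Myom1 (-0.0112 to 0.116) and Ttn (-0.116 to 0.0297). Among ratios it changed for Tnni2/Tnni3 (-0.443 to 0.719), Tpm2/Tpm1 (-0.471 to 0.115), Myom2/Myom1 (-0.201 to 0.256) and Myom3/Myom1 (-0.499 to 0.248). The cause was not tested. Synpo2l, Flnc, Myl1 and Tnnt1 kept their sign under every alternative. Their groups do not overlap, so leaving out 1 library could not have reversed it, and the kept sign says nothing about stability.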
